A study of Mus musculus with 12 samples.

Results

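The 45 genes described here take fatty acids and ketone bodies from the blood to the respiratory chain of the heart. They were chosen by gene symbol and sorted into 9 steps. These are uptake, activation to acyl-CoA, thioesterases, entry into mitochondria by carnitine, β-oxidation, electron transfer from β-oxidation, lipid droplets, uncoupling and ketone body use. All 45 were among the 25171 rows of the count table, and all 45 passed the filter on low counts in every comparison. RNA-seq was made from 12 mouse hearts, 3 in each of 4 groups, of mice carrying a human NOTCH2NLC transgene with an expanded (GGC)98 repeat at the Rosa26 locus behind a loxP-flanked stop sequence. EIIa-tg mice also carried EIIa-Cre, which removes the stop in all tissues from the embryo on, and their hearts were taken at day 30. EIIa-ctl mice of the same age carried the conditional allele without the Cre. Myh6-tg mice carried Myh6-creERT2, a Cre made in cardiomyocytes and active after tamoxifen, received 75 mg/kg tamoxifen 3 times from day 60, and were sampled at day 90. Myh6-ctl mice, littermates also taken at day 90, have the same genotype in the labels and received corn oil, so effects of tamoxifen and of transgene expression cannot be told apart in that comparison. Age, Cre and treatment all differ between the models and cannot be told apart in a comparison of them. Genotype labels of EIIa-tg hearts 2 and 3 bear other line names than that of heart 1, and hearts were grouped by their titles.

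Each library held between 38343106 and 50969834 counts on genes, so 3 counts corresponded to between 0.0589 and 0.0782 CPM (counts normalised to a common library size). Cardiomyocyte transcripts were abundant in all 12 libraries, with a summed level of 10 markers between 12230 and 56670 CPM, and Snap25, Syt1 and Rbfox3 of neurons were at most 0.285 CPM, although an extraction label names brain. The 8 neural markers together summed to at most 56.8 CPM. The level of the transgene was not analysed here. Cre-ERT2 is a fusion with part of an estrogen receptor, the protein that Esr1 encodes in mice. The Esr1 level was 2330, 1383 and 1030 CPM in Myh6-ctl hearts 1 to 3 and 1.30, 2.52 and 1.00 in Myh6-tg hearts. Esr1 lay between 0.41 and 1.23 in both EIIa groups, mice that carry no Cre-ERT2. The labels give both Myh6 groups the Cre-ERT2, so the low Esr1 of the libraries labelled Myh6-tg goes against them, and every direction given below for Myh6-tg is that of the libraries labelled so. Mitochondrially encoded genes took 28.5% to 38.3% of counts in the other groups and 15.5% to 18.6% in Myh6-tg. Replicate 1 of each group carried Y-linked counts and the other hearts carried next to none.

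The heart obtains most of its ATP from fatty acids. Lipoprotein lipase frees them from circulating triglyceride, CD36 and fatty acid transport proteins bring them into the cell, fatty acid-binding proteins carry them through the cytosol, and acyl-CoA synthetases activate them. Acyl-CoA is then stored as triglyceride in lipid droplets or passed through the carnitine shuttle into mitochondria. There a cycle of dehydrogenation, hydration, dehydrogenation and thiolysis shortens it to acetyl-CoA, with electrons handed to the respiratory chain through the electron transfer flavoproteins. Ketone bodies enter the same acetyl-CoA pool after conversion by BDH1 and OXCT1. Many of these genes are targets of the nuclear receptors PPARα and ERRα with their coactivator PGC-1α. In failing hearts lower expression of this set is well known.

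Levels below are in CPM, with library sizes scaled by the trimmed mean of M values, and are listed for hearts 1 to 3 of a group in order. Fold changes are log2 values from edgeR's quasi-likelihood test, with Benjamini-Hochberg adjusted p over all genes tested, and a gene rose or fell where its adjusted p was under 0.05. DEGs met the stricter thresholds used in the study, an adjusted p under 0.01 together with a log2 fold change of 1 or more, up or down. The study applied them to DESeq2, and here they are applied to edgeR unless DESeq2 is named.

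The broader change was in the Myh6 model, with the libraries taken as labelled. In Myh6-tg hearts 23 of the 45 genes (51.1%) fell and 1, Acsl4, rose, against 9.38% of all 15298 genes tested lower and 8.96% higher. As DEGs, 19 members were down-regulated and none up-regulated, where 2.05% and 1.92% of all genes were. The median log2 fold change of the 45 was -1.15, and 0.03 over all genes. The fall took in most of β-oxidation (10 of 12 genes), carnitine entry (4 of 5), electron transfer (3 of 3) and ketone use (2 of 3). Fewer calls came from uptake (1 of 5), the thioesterases (0 of 3) and the droplets (2 of 7). Median log2 fold changes of these last steps were -0.82, -0.87 and -0.10, and in lists this short few calls do not show that a step was spared. All 3 Myh6-tg hearts lay below all 3 Myh6-ctl hearts for 24 of the 45 genes, and 19.6% of all genes did so. Unadjusted p was under 0.05 for 29 of the 45 genes and for 5210 of all 15298.

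These counts varied with the libraries. With 1 heart left out the number of members that fell stayed between 18 and 27, and 18 of the 24 calls held in each of the 6 fits. Over all genes these fits called between 411 and 2226 lower and between 387 and 2043 higher, and DEGs were not counted over all genes. The number of DEGs went to 1 without Myh6-ctl 1, Myh6-ctl 2, Myh6-tg 2 or Myh6-tg 3, to 3 without Myh6-ctl 3 and to 27 without Myh6-tg 1. With replicate number as a block, 26 fell and 2 rose, Fabp3, Acsl6, Acot13 and Ucp2 being added to the calls. Of all 15298 genes, 1711 fell (11.2%) and 1493 rose in that fit. Scaling by total counts moved the median of all genes from 0.03 to 0.43 and gave 22 members lower and 3 higher. Of all 15298 genes, 854 were lower (5.58%) and 3153 higher with that scaling.

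In EIIa-tg hearts, where the Cre acts in all tissues and the mice were younger, 10 members (22.2%) fell and 4 (8.89%) rose, against 8.3% and 8.65% of all 14908 genes. Those that fell were Acsl1, Acsl6, Cpt2, Acads, Hadh, Echs1, Etfdh, Dgat2, Oxct1 and Acat1. Those that rose were Pnpla2, Lipe and Plin2, which act at lipid droplets, and Ucp2. The share that rose was near that of all genes. No member was a DEG by edgeR, as for all genes (0% in either direction), while DESeq2 gave 4 (Acsl6, Echs1, Dgat2 and Ucp2). DEGs by DESeq2 were not counted over all genes here. Unadjusted p was under 0.05 for 26 of the 45 genes and for 5204 of all 14908. The median log2 fold change of the 45 was -0.16, and 0.02 over all genes. All 3 EIIa-tg hearts lay below the 3 EIIa-ctl hearts for 17 of the 45, and 20.8% of all genes did so.

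All 14 calls in EIIa-tg were lost on leaving out EIIa-ctl 1, EIIa-ctl 3, EIIa-tg 1 or EIIa-tg 3. Few genes were called at all in these fits, most of them without EIIa-tg 3 (29 lower and 104 higher of 15171). Without EIIa-ctl 2, 5 members fell (Acsl6, Hadh, Echs1, Etfdh and Dgat2) and 3 rose (Lipe, Plin2 and Ucp2). Of all 15358 genes, 785 fell (5.11%) and 1009 rose in that fit. Without EIIa-tg 2, 12 members fell and 8 rose, with 7 DEGs. Of all 15310 genes, 2110 fell (13.8%) and 1969 rose there, and DEGs were not counted over all genes. Fitting all 12 hearts together left Dgat2 alone (adjusted p = 0.0437), with 51 of all 15929 genes lower (0.32%) and 176 higher. The 14 kept their direction under every alternative run. Scaling by total counts gave 7 members lower and 6 higher. Of all 14908 genes, 642 were lower (4.31%) and 2531 higher with that scaling.

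**Figure D1:**
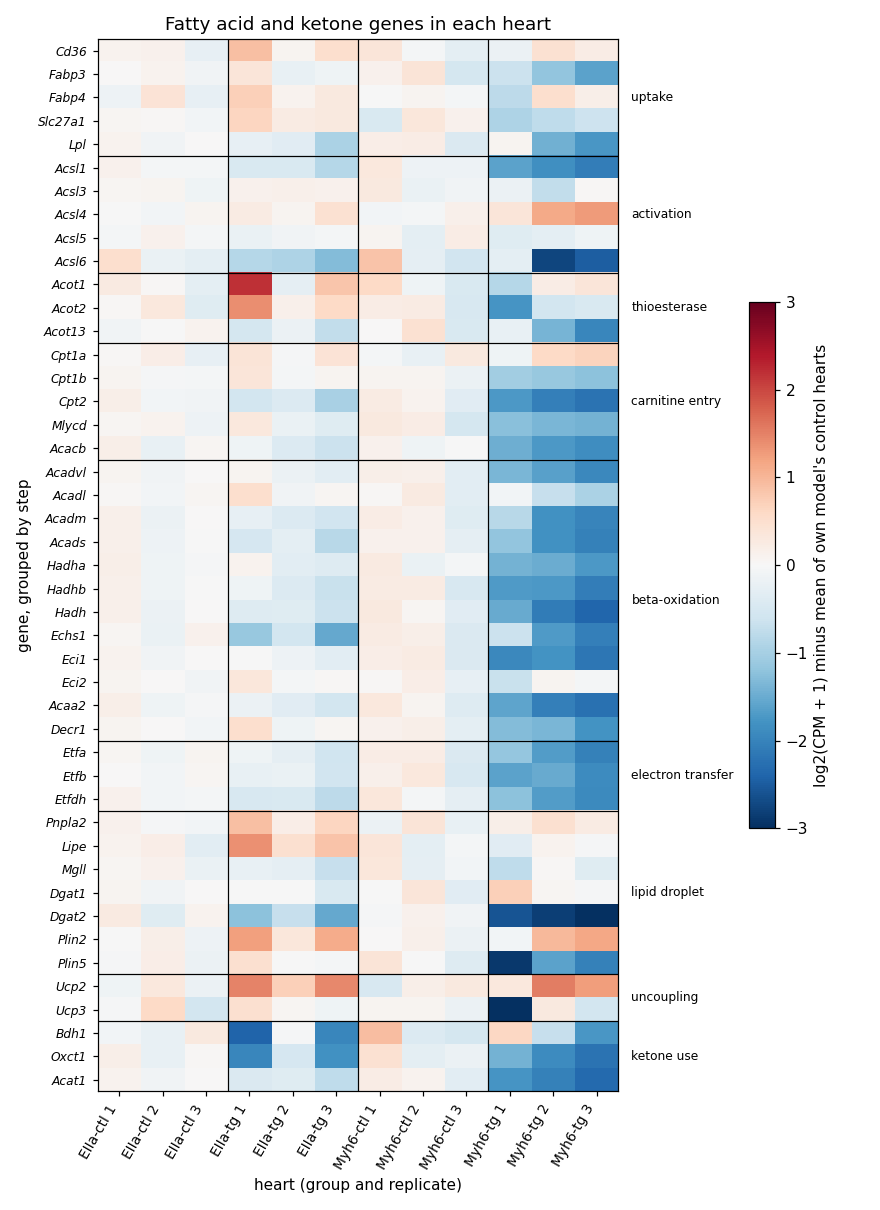
Heat map of the 45 genes in rows, ordered by step, and the 12 hearts in columns, ordered by group; colour gives log2(CPM + 1) minus the mean of the control hearts of the same model, blue being lower. The 3 Myh6-tg columns are bluest for most of the β-oxidation, carnitine, electron transfer and ketone rows, and 24 of the 45 rows have all Myh6-tg hearts below all Myh6-ctl hearts.

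**Figure D2:**
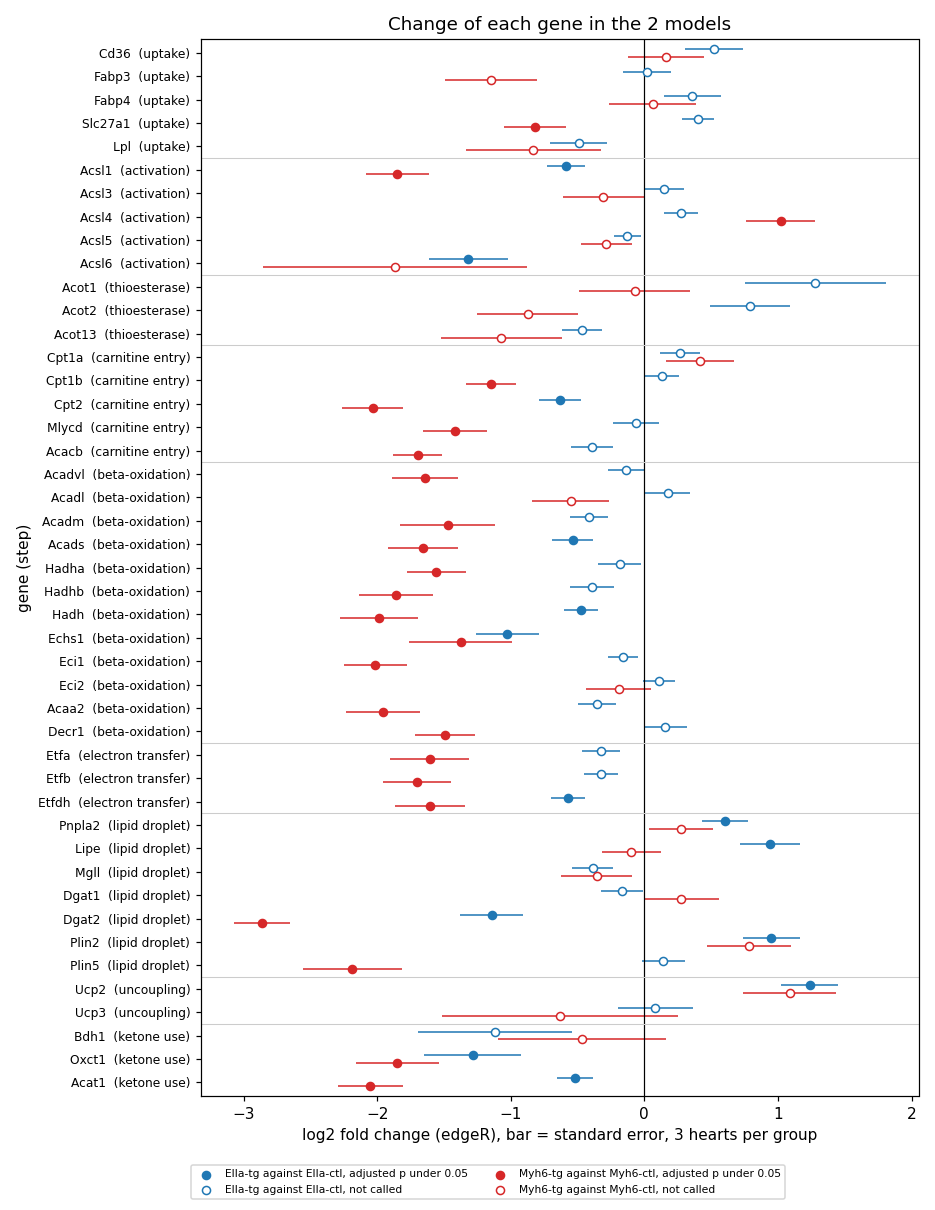
Log2 fold change of each of the 45 genes with its standard error (bars), EIIa-tg against EIIa-ctl beside Myh6-tg against Myh6-ctl, 3 hearts a group; filled points passed adjusted p under 0.05. Filled points number 14 for EIIa-tg and 24 for Myh6-tg, and the largest fall in Myh6-tg is that of Dgat2 (-2.86).

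Of the 5 uptake genes, 1 fell in Myh6-tg and none was called in EIIa-tg by edgeR. In EIIa-tg 3 of them had an unadjusted p under 0.05, as had 5204 of all 14908 genes. DESeq2 called 3 there (Cd36, Slc27a1 and Lpl), and over all genes it called 1737 lower (10.3%) and 1802 higher. Slc27a1 encodes FATP1, a membrane fatty acid transport protein. Its level was 63.3, 111 and 95.6 CPM in Myh6-ctl and 45.5, 51.1 and 56.5 in Myh6-tg (log2 fold change -0.82, SE 0.23, adjusted p = 0.0474), with the groups apart. This call held in 9 of the 18 alternative fits. Of the 6 fits with a heart left out it held in 1, the one without Myh6-ctl 1, and it was lost with total-count scaling. In the deposited values scaled for length and library size the groups overlapped, 19.9 to 35.9 in Myh6-ctl and 17.8 to 26.4 in Myh6-tg. In the EIIa model the order was the opposite: 117, 115 and 106 CPM in EIIa-ctl and 175, 134 and 138 in EIIa-tg, all 3 transgenic hearts above the controls (log2 fold change 0.40, adjusted p = 0.0518). Slc27a1 was the only member that fell in Myh6-tg with all EIIa-tg hearts above their controls, and the difference between the models passed the test (-1.22, adjusted p = 0.0274).

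Fabp3, the cardiac fatty acid-binding protein, was 2005, 2371 and 1273 CPM in Myh6-ctl and 1159, 799 and 595 in Myh6-tg, again without overlap, and missed the threshold (log2 fold change -1.15, SE 0.35, adjusted p = 0.0556). With the replicate block its adjusted p was 0.0184. Fabp4, the form of adipocytes and capillary endothelium, overlapped between Myh6-ctl (446, 476 and 433 CPM) and Myh6-tg (260.2, 646 and 509). Cd36, the main fatty acid translocase, and Lpl, lipoprotein lipase, overlapped too. Cd36 was 2107, 1566 and 1335 CPM against 1451, 2237 and 1907 (0.16, adjusted p = 0.736). Lpl was 5126, 5196 and 3292 CPM in Myh6-ctl and 4692, 1646 and 1319 in Myh6-tg (-0.83, adjusted p = 0.288). For Lpl, hearts 2 and 3 of Myh6-tg were well below every control and heart 1 was among them.

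Acyl-CoA synthetases of the Acsl family activate long-chain fatty acids, and Acsl1 is the main form of the adult heart. Acsl1 (Ensembl ENSMUSG00000018796, chr8:46471037-46536051, plus strand, GRCm38) was 636, 465 and 459 CPM in Myh6-ctl and 169, 144 and 120.5 in Myh6-tg, 3.60-fold lower (log2 fold change -1.85, SE 0.23, adjusted p = 0.00423). In the EIIa model it was 782, 688 and 695 CPM in controls and 521, 528 and 396 in transgenic hearts (log2 fold change -0.59, SE 0.14, adjusted p = 0.0318). The groups did not overlap in either model. Acsl4, which prefers arachidonic acid, went the other way in Myh6-tg, from 17.1, 17.3 and 20.1 CPM to 23.6, 41.1 and 45.5 (log2 fold change 1.02, SE 0.26, adjusted p = 0.0332), with heart 1 of Myh6-tg closest to the controls. The Acsl4 call held in 1 of the 6 fits with a heart left out, the one without Myh6-tg 1. In EIIa-tg Acsl4 was 18.6, 16.5 and 21.9 CPM and in EIIa-ctl 15.5, 14.8 and 16.7 (0.28, adjusted p = 0.169).

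Acsl6 had few reads, with 9.38, 5.37 and 5.05 CPM in EIIa-ctl and 3.11, 2.88 and 1.98 in EIIa-tg, and fell there (log2 fold change -1.32, SE 0.30, adjusted p = 0.0271). In Myh6-tg it was 6.62, 0.390 and 0.681 CPM, 2 hearts far below the third, and 15.9, 6.78 and 5.26 in Myh6-ctl (-1.87, adjusted p = 0.226, and 0.0198 with the replicate block). Acsl3 lay between 4.08 and 9.48 CPM and Acsl5 between 24.03 and 36.2 over the 12 hearts, and neither passed in a model.

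Because the 5 genes differ in length, their balance was compared per length of transcript, as each gene's share of the summed FPKM (fragments per kilobase of transcript scaled to library size, as deposited) of the 5. Acsl1 made up 93.2% ± 0.56 (SD, n = 3) of the family in EIIa-ctl and 90.2% ± 2.08 in EIIa-tg. In Myh6-ctl it made up 90.2% ± 1.24, and 70.2% ± 6.09 in Myh6-tg. Acsl4 made up 1.48% ± 0.14, 2.81% ± 0.85, 2.42% ± 0.60 and 14.1% ± 5.19 of the 4 groups in the same order. Acsl5 reached 11.7% ± 1.91 in Myh6-tg from 5.06% ± 1.07 in Myh6-ctl, although its own level did not pass the test. These shares are a description without a test, and a share rises where the dominant member falls. Ranges of Myh6-tg and Myh6-ctl did not overlap for the Acsl1, Acsl4 and Acsl5 shares.

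**Figure D3:**
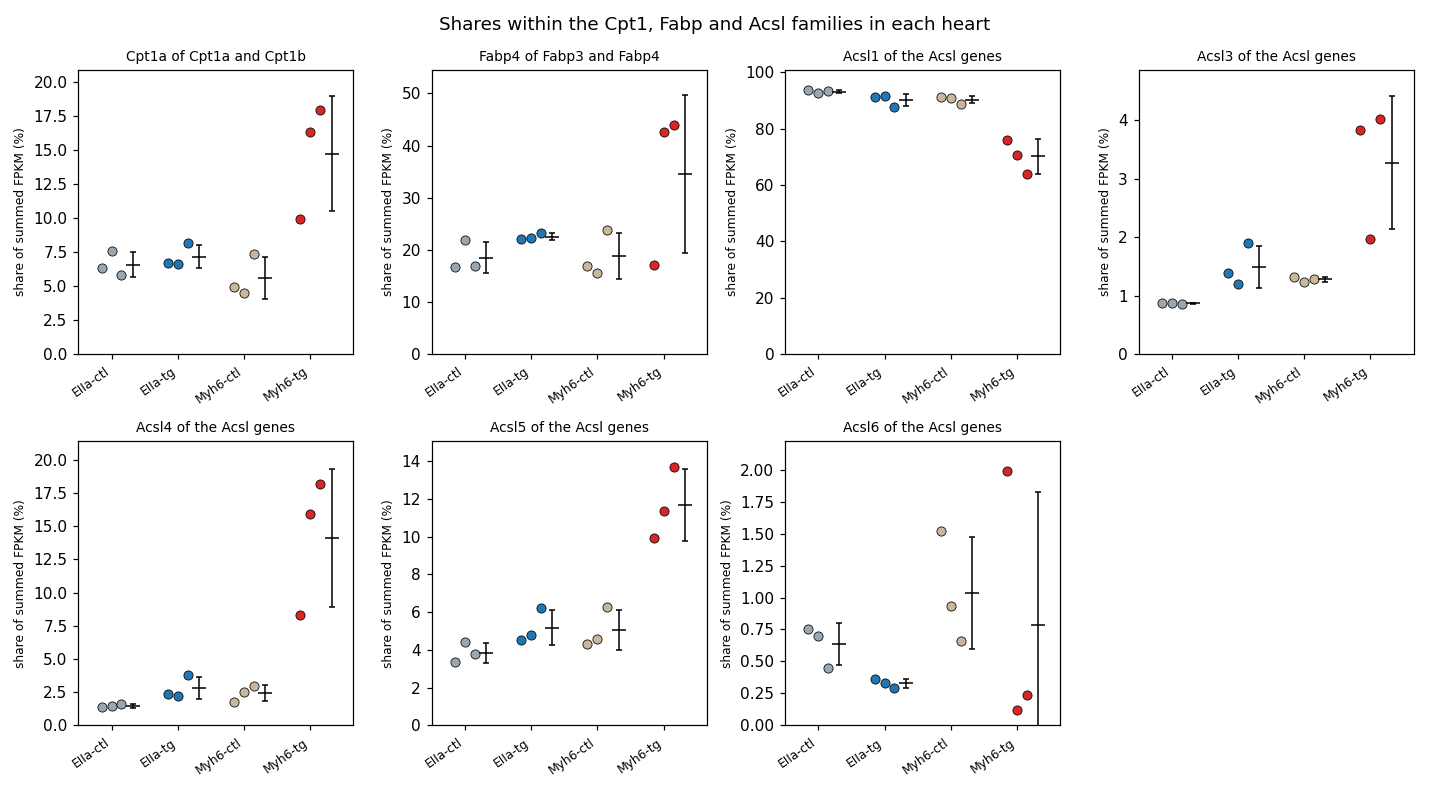
Share of each gene in the summed FPKM of its family (percent, vertical axis) by group, for the 5 Acsl genes, for Cpt1a in Cpt1a plus Cpt1b and for Fabp4 in Fabp3 plus Fabp4; points are hearts, with the mean and SD of 3 beside them. The Acsl1 share is lowest in Myh6-tg (mean 70.2%), with the shares of Acsl4 (14.1%) and Cpt1a (14.7%) highest there.

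Acyl-CoA thioesterases release the fatty acid again. None of the 3 was called by edgeR in either model, and DESeq2 called 1, Acot13, in each. At an unadjusted p under 0.05 there were 3 in EIIa-tg (5204 of all 14908 genes) and 2 in Myh6-tg (5210 of 15298). Acot13 was 138, 189 and 99.6 CPM in Myh6-ctl and 117, 51.3 and 34.4 in Myh6-tg (-1.07, adjusted p = 0.139, and 0.0452 with the replicate block), the ranges overlapping through heart 1 of Myh6-tg. Acot1 and Acot2 are near-identical neighbours whose reads the counting may have divided between them, so both are uncertain. Acot1 was 23.5, 20.1 and 15.6 CPM in EIIa-ctl and 93.1, 15.9 and 35.7 in EIIa-tg, heart 1 alone being far above the rest, and Acot2 was 60.1, 72.9 and 45.4 and 155, 65.4 and 89.2.

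Carnitine palmitoyltransferase 1 at the outer mitochondrial membrane commits acyl groups to oxidation, and 4 of the 5 genes of this step fell in Myh6-tg (median log2 fold change -1.42). Cpt1b (ENSMUSG00000078937, chr15:89416405-89425863, minus strand), the muscle form, was 503, 499.9 and 419.7 CPM in Myh6-ctl and 227, 214 and 201 in Myh6-tg (log2 fold change -1.15, SE 0.19, adjusted p = 0.00887). Without Myh6-tg 2 its adjusted p was 0.0503. In EIIa-tg Cpt1b overlapped its controls, 560, 514 and 506 against 671, 507 and 554 CPM (0.13, adjusted p = 0.516). Cpt1a, the liver form, also present in the fetal heart, was 38.97, 34.9 and 50.01 CPM in Myh6-ctl and 37.3, 62.1 and 65.5 in Myh6-tg (0.42, adjusted p = 0.293). Heart 1 of Myh6-tg lay within the control range of Cpt1a, and hearts 2 and 3 above it. Per length, Cpt1a made up 5.60% ± 1.57 (SD, n = 3) of Cpt1a plus Cpt1b in Myh6-ctl and 14.7% ± 4.23 in Myh6-tg, with no overlap, and 6.56% ± 0.91 and 7.16% ± 0.86 in the EIIa groups.

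Cpt2, the inner membrane enzyme that returns acyl groups to CoA, fell in both models. It was 246, 206 and 203 CPM in EIIa-ctl and 148, 164 and 111 in EIIa-tg (log2 fold change -0.63, SE 0.16, adjusted p = 0.0337). In Myh6-ctl it was 189, 172 and 127 and in Myh6-tg 47.8, 37.7 and 33.8, 4.09-fold lower (log2 fold change -2.03, SE 0.23, adjusted p = 0.00306). The fall was larger in Myh6-tg by the test of the difference (-1.40, adjusted p = 0.0188). Malonyl-CoA inhibits CPT1, and the genes that make it and remove it at mitochondria fell together in Myh6-tg. Acacb, the mitochondrial acetyl-CoA carboxylase that makes it, went from 186, 156 and 169.9 to 60.8, 51 and 46.5 CPM (log2 fold change -1.70, SE 0.18, adjusted p = 0.00266). Mlycd, the decarboxylase that breaks it down, went from 95.8, 90.2 and 53.7 to 32.1, 29.1 and 28.3 (log2 fold change -1.42, SE 0.24, adjusted p = 0.00972). In EIIa-tg, where neither passed, Acacb was 187, 154 and 129.6 CPM against 232, 173 and 210.4 in controls (-0.39, adjusted p = 0.118), and Mlycd was 130.1, 90.5 and 80.8 against 108, 112 and 93.97 (-0.06, adjusted p = 0.829). Acacb and Mlycd both overlapped between the EIIa groups.

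β-Oxidation itself was the step with the most calls. In Myh6-tg, 10 of its 12 genes fell, 8 of them as DEGs, with a median log2 fold change of -1.60; Acadl and Eci2 did not pass. In EIIa-tg, 3 of 12 fell (Acads, Hadh and Echs1), with a median of -0.27. The 4 acyl-CoA dehydrogenases, which open the cycle on chains of different length, differed among themselves. Acadvl, for very long chains, was 757, 748 and 539 CPM in Myh6-ctl and 261, 217 and 177 in Myh6-tg (log2 fold change -1.64, SE 0.24, adjusted p = 0.00675). Acads, for short chains, was 208, 207 and 158 and 82.8, 53.3 and 45.9 (log2 fold change -1.66, SE 0.26, adjusted p = 0.00808), and both were well separated from their controls. In the EIIa model Acads fell, from 252, 204 and 225 to 159.8, 185 and 126 CPM (log2 fold change -0.54, SE 0.15, adjusted p = 0.0482), and Acadvl was 918, 807 and 876 and 910.1, 766 and 698 (-0.14, adjusted p = 0.514). The Acadvl ranges overlapped there and those of Acads did not. Acadm, for medium chains (ENSMUSG00000062908, chr3:153922357-153944632, minus strand), was 964, 903 and 645 and 466, 232 and 207 (log2 fold change -1.47, SE 0.35, adjusted p = 0.028). The Acadm call held in 2 of the 6 fits with a heart left out, those without Myh6-ctl 3 and Myh6-tg 1, heart 1 being the highest of Myh6-tg. Acadl, for long chains, was 921, 1072 and 721 CPM in Myh6-ctl and 838, 552 and 461 in Myh6-tg, heart 1 lying within the control range (-0.55, adjusted p = 0.223).

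Hadha and Hadhb encode the α and β subunits of the mitochondrial trifunctional protein and lie head to head on chromosome 5. Hadha was 928, 673 and 742 CPM in Myh6-ctl and 290.4, 273 and 232 in Myh6-tg, 2.94-fold lower (log2 fold change -1.56, SE 0.22, adjusted p = 0.00577). Hadhb was 1544, 1557 and 936 and 402, 398 and 312, 3.63-fold lower (log2 fold change -1.86, SE 0.28, adjusted p = 0.00682). Both subunits thus fell in Myh6-tg with every transgenic heart under every control. In the EIIa model Hadha was 1165, 944 and 1019 CPM in controls and 1125, 834 and 799.6 in transgenic hearts (-0.19, adjusted p = 0.455). Hadhb was 1743, 1421 and 1550 and 1425, 1186 and 992 there (-0.39, adjusted p = 0.131). Both overlapped between the EIIa groups through heart 1 of EIIa-tg.

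Hadh and Echs1, matrix enzymes for shorter chains, fell in both models. Hadh, short-chain 3-hydroxyacyl-CoA dehydrogenase, was 559, 449 and 511 CPM in EIIa-ctl and 384, 390 and 322 in EIIa-tg (log2 fold change -0.47, SE 0.13, adjusted p = 0.0418), and 439, 379 and 283 in Myh6-ctl and 126, 82.9 and 68.9 in Myh6-tg (log2 fold change -1.99, SE 0.29, adjusted p = 0.00613). Echs1, short-chain enoyl-CoA hydratase, was 437, 364 and 459 CPM in EIIa-ctl and 190.1, 286 and 143 in EIIa-tg (log2 fold change -1.03, SE 0.24, adjusted p = 0.0282), and 342, 326 and 215 and 183, 88.6 and 68.95 in the Myh6 groups (log2 fold change -1.38, SE 0.38, adjusted p = 0.044). Echs1 had the lowest log2 fold change of the 12 genes of the cycle in EIIa-tg, and its Myh6 call held in 1 of the 6 fits with a heart left out, the one without Myh6-tg 1. Acaa2, the medium-chain thiolase, went from 729, 617 and 447 to 196, 142 and 123 CPM in the Myh6 groups (log2 fold change -1.96, SE 0.28, adjusted p = 0.00572), and in the EIIa groups it was 949.9, 771 and 824 and 749, 665 and 578 (-0.36, adjusted p = 0.112).

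Unsaturated fatty acids need auxiliary enzymes. Eci1, a Δ3,Δ2-enoyl-CoA isomerase, had one of the larger falls, from 198, 204 and 129 CPM in Myh6-ctl to 44.8, 49.1 and 37.5 in Myh6-tg (log2 fold change -2.01, SE 0.24, adjusted p = 0.00354), and its level in EIIa-tg was 223, 203 and 182 against 243, 209 and 226 (-0.16, adjusted p = 0.336). Eci2, the second isomerase, also found in peroxisomes, was 119, 134 and 97.5 CPM and 72.8, 123 and 110.3 in the Myh6 groups, which overlapped (-0.19, adjusted p = 0.619). Decr1, 2,4-dienoyl-CoA reductase, went from 320, 329 and 237 to 119, 112 and 84.1 CPM (log2 fold change -1.49, SE 0.23, adjusted p = 0.00694). In EIIa-tg Decr1 was 475, 305 and 347 CPM, heart 1 above and heart 2 below every EIIa-ctl heart (355, 338 and 315).

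**Figure D4:**
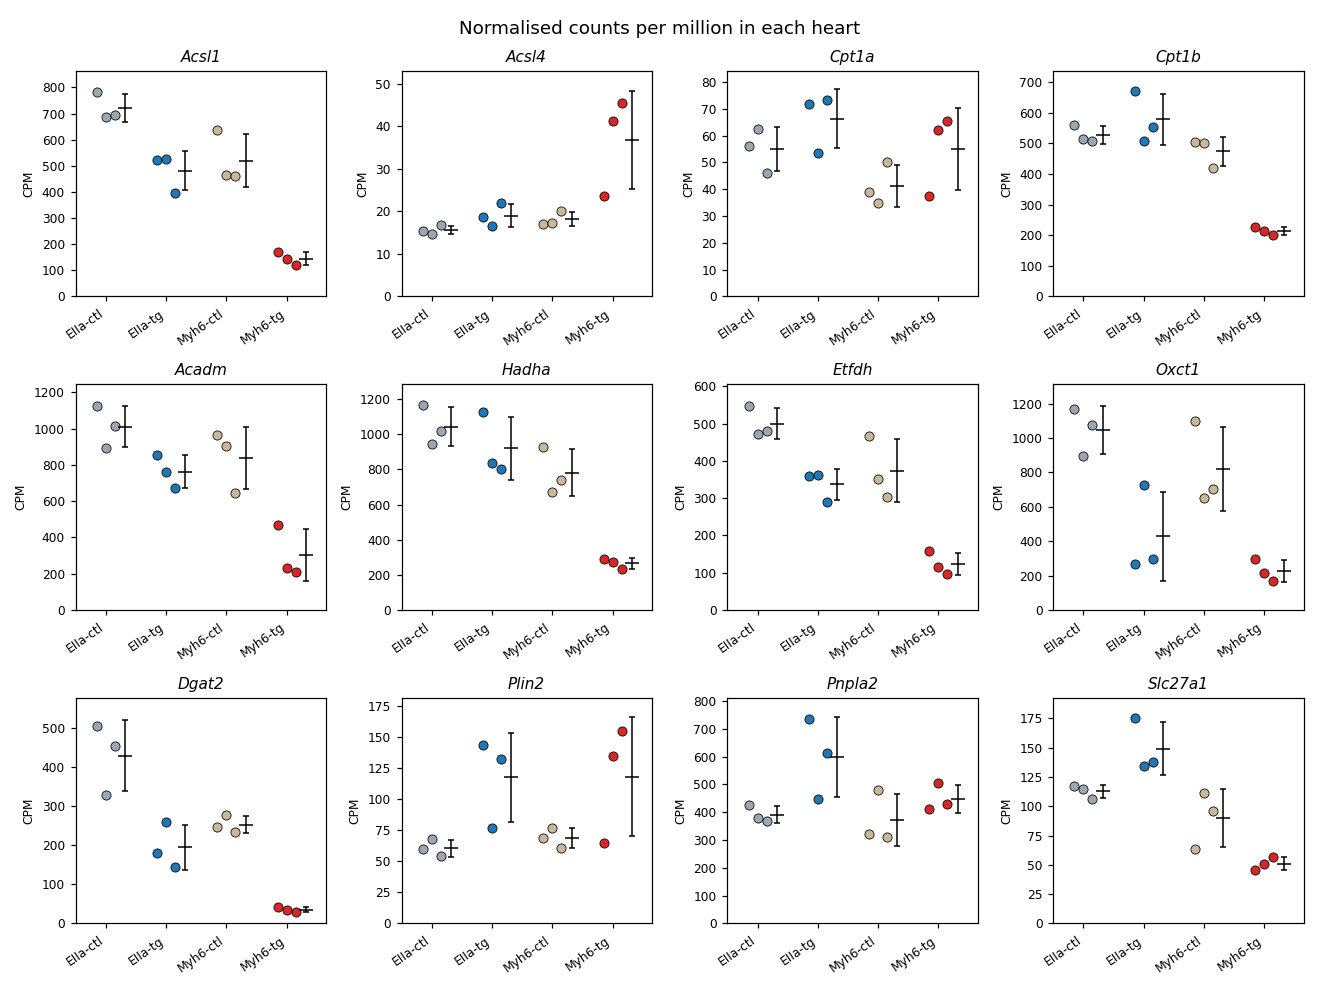
CPM (vertical axes from 0) of 12 of the genes in each heart, grouped as EIIa-ctl, EIIa-tg, Myh6-ctl and Myh6-tg; points are hearts 1 to 3 from left to right, with the mean and SD of 3 beside them. Dgat2, Acsl1, Hadha and Oxct1 have all Myh6-tg points under all Myh6-ctl points, while those of Acsl4 lie above, and Cpt1a, Plin2 and Pnpla2 have Myh6-tg hearts within or above the control range.

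Sequence before the start of these genes was examined for the motif of the estrogen-related receptors, since ERRα is a known regulator of the cycle. In RefSeq GRCm38.p6, 36 of the 45 genes matched a window running from 250 bases before the start to 50 after it; Decr1, Cpt1b, Dgat2, Acat1, Fabp4, Acaa2, Acot13, Lpl and Dgat1 had no window. The core motif AAGGTCA was searched on both strands and was in the windows of 3 of the 36 genes (8.33%), Acadm, Acsl6 and Acacb, and in 5.38% of all 27025 genes with a window. In Acacb it lay after the start. The direct repeat bound by PPAR with RXR, AGGTCANAGGTCA, which overlaps the core motif in its letters, was in none of the 36 and in 0.0481% of all genes. The stretches around the upstream matches are shown because Acadm and Acsl6 fell in one of the models each. They are written 5′ to 3′ on the strand of the gene, with the core motif, read on the opposite strand, in capitals:
Acadm (chr3:153944876-153944893, minus strand, motif 249 to 243 bases before the start): gTGACCTTcgggctccgg
Acsl6 (chr11:54303625-54303651, plus strand, motif 189 to 183 bases before the start): agtcttcccgTGACCTTgtgtggcctc
Acsl6 (chr11:54303647-54303673, plus strand, motif 167 to 161 bases before the start): gcctccaaccTGACCTTgagcattctt

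A match of letters is not a bound site. Most genes of the cycle that fell in Myh6-tg, Hadha, Hadhb and Acadvl among them, had no match in this window, which says only that these letters are not there.

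Electrons from the acyl-CoA dehydrogenases pass to ETF, the dimer of Etfa and Etfb, and on to ubiquinone through ETF dehydrogenase. All 3 genes fell in Myh6-tg (median log2 fold change -1.61). Etfb was 364, 406 and 234 CPM in Myh6-ctl and 107, 114 and 87.6 in Myh6-tg (log2 fold change -1.70, SE 0.25, adjusted p = 0.00682), and Etfa was 522, 525 and 331 and 201, 141 and 109.9 (log2 fold change -1.61, SE 0.30, adjusted p = 0.0128). Every Myh6-tg heart was under every control for both subunits of the dimer. The Etfa call was lost without Myh6-ctl 1 (adjusted p = 0.0538) or Myh6-tg 2 (0.0564). In the EIIa model Etfb was 423, 401 and 440.5 CPM and 363, 368 and 281 (-0.32, adjusted p = 0.118). Etfdh fell in both models, from 549, 472 and 480.1 to 359, 363 and 289 CPM in EIIa (log2 fold change -0.57, SE 0.13, adjusted p = 0.0271) and from 468, 351 and 304 to 157, 115 and 97.5 in Myh6 (log2 fold change -1.60, SE 0.26, adjusted p = 0.00887).

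The 7 lipid droplet genes divided. Dgat2 (ENSMUSG00000030747, chr7:99153658-99182719, minus strand) makes triglyceride from diacylglycerol and had the largest fall of the 45 in Myh6-tg. Its level was 246, 277 and 235 CPM in Myh6-ctl and 41.2, 34.5 and 28.4 in Myh6-tg, 7.28-fold lower (log2 fold change -2.86, SE 0.21, adjusted p = 0.00102). In the EIIa model it was 506, 328 and 454 CPM in controls and 180.3, 259 and 144 in transgenic hearts (log2 fold change -1.14, SE 0.24, adjusted p = 0.0227). Transgenic hearts lay below their controls in both models, and the Myh6 fall was the larger (-1.72, adjusted p = 0.0143 for the difference). Dgat1, the other enzyme of this reaction, was low throughout, between 11.4 and 25.0 CPM in the 12 hearts, and passed in neither model.

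Perilipins coat the droplet. Plin5, the perilipin of oxidative tissue that tethers droplets to mitochondria, was 92.8, 69.8 and 53.8 CPM in Myh6-ctl and 8.64, 22.3 and 16.6 in Myh6-tg, 4.55-fold lower (log2 fold change -2.19, SE 0.37, adjusted p = 0.0096). In EIIa-tg it was 118, 84.1 and 81.5 CPM and in EIIa-ctl 83.5, 97.7 and 75.3, with overlap (0.14, adjusted p = 0.572). Plin5 had the largest difference between the models of the 45 (-2.33, adjusted p = 0.0128). Plin2, the perilipin found on droplets of most cells, rose in EIIa-tg, from 59.7, 67.98 and 54.5 to 144, 76.99 and 133 CPM (log2 fold change 0.95, SE 0.21, adjusted p = 0.0263). In Myh6-tg Plin2 was 64.5, 135 and 156 CPM, hearts 2 and 3 above and heart 1 within the control values of 68.96, 76.8 and 60.8 (0.78, adjusted p = 0.126).

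Triglyceride is broken down in turn by ATGL (Pnpla2), hormone-sensitive lipase (Lipe) and monoglyceride lipase (Mgll). Pnpla2 rose in EIIa-tg, from 426, 379 and 370.1 to 735, 446 and 613 CPM (log2 fold change 0.61, SE 0.17, adjusted p = 0.0482). Lipe rose there from 50.8, 53.6 and 37.6 to 123, 65.7 and 84.9 CPM (log2 fold change 0.94, SE 0.23, adjusted p = 0.0308). For Plin2, Pnpla2 and Lipe alike, EIIa-tg heart 2 was the lowest of its group and still above every control. Neither lipase passed in Myh6-tg (Pnpla2 0.27, adjusted p = 0.46; Lipe -0.10, adjusted p = 0.797), and Mgll, between 103 and 224 CPM over the 12 hearts, passed in neither model. Adipocytes express these genes too. Summed adipocyte markers were at or under 11 CPM in every heart, with 0.546, 1.64 and 0.815 CPM in EIIa-ctl and 1.63, 4.61 and 4.81 in EIIa-tg, where all 4 markers tested had a log2 fold change above 0 and 1 rose. Their part in these results was not tested.

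Ucp2 and Ucp3 encode mitochondrial carriers of the inner membrane, Ucp3 being known to follow fatty acid supply. Ucp2 (ENSMUSG00000033685, chr7:100493337-100502020, plus strand) rose in EIIa-tg, from 86.8, 119 and 84.9 to 268, 159 and 261 CPM, 2.36-fold (log2 fold change 1.24, SE 0.21, adjusted p = 0.0167). In Myh6-tg it was 156, 363 and 301 CPM against 90.1, 142 and 154, every transgenic heart above the controls, by a small margin for heart 1 (1.09, adjusted p = 0.0666, and 0.0142 with the replicate block). Ucp2 is abundant in macrophages, and summed markers of macrophages, all 10 of which rose in EIIa-tg, were 510 to 784 CPM in EIIa-ctl and 1081 to 1427 in EIIa-tg. Their part in the level of Ucp2 was not tested. In Myh6-tg none of the 10 was called by edgeR (3 had an unadjusted p under 0.05, as had 5210 of all 15298 genes). Their sum was 976 to 1597 CPM in Myh6-ctl and 1155 to 2574 in Myh6-tg. Ucp3 was 0.598, 21.02 and 11.4 CPM in Myh6-tg and 18.2, 18.02 and 15.1 in Myh6-ctl, and passed in neither model.

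Of the 3 genes of ketone body use, 2 fell in each model, and they were Oxct1 and Acat1 in both. Oxct1 (ENSMUSG00000022186, chr15:4026383-4155344, plus strand) encodes SCOT, which activates acetoacetate. It was 1171, 894 and 1074 CPM in EIIa-ctl and 265, 728 and 293 in EIIa-tg (log2 fold change -1.28, SE 0.37, adjusted p = 0.0465), with EIIa-tg hearts 1 and 3 far below heart 2. The Oxct1 call in EIIa-tg held in 1 of the 6 fits with a heart left out and was lost by DESeq2 (adjusted p = 0.0606). In the Myh6 groups Oxct1 was 1097, 653 and 706 and 298, 213 and 169.8 CPM, 3.60-fold lower (log2 fold change -1.85, SE 0.31, adjusted p = 0.00945). Acat1, the thiolase that splits acetoacetyl-CoA, went from 584, 506 and 547 to 401, 421 and 321 CPM in EIIa (log2 fold change -0.52, SE 0.13, adjusted p = 0.0365) and from 493, 456 and 341 to 125, 103 and 83.8 in Myh6 (log2 fold change -2.05, SE 0.24, adjusted p = 0.00367). Bdh1, the first enzyme, spread widely, with 6.43, 37.6 and 9.13 CPM in EIIa-tg, 36.1, 32.6 and 47.3 in EIIa-ctl, 109, 42.8 and 38.8 in Myh6-ctl and 87.6, 34.6 and 16.1 in Myh6-tg, and passed in neither model. Its low EIIa-tg hearts were those low for Oxct1, hearts 1 and 3.

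The change in Myh6-tg against that in EIIa-tg was tested as an interaction over the 12 hearts. It passed for 17 of the 45 genes (37.8%), all with the lower value in Myh6 with the libraries taken as labelled, against 2.27% of all 15929 genes lower and 1.65% higher. The 17 came from β-oxidation (Acadvl, Hadha, Hadhb, Hadh, Eci1, Acaa2 and Decr1), carnitine entry (Cpt1b, Cpt2, Mlycd and Acacb), droplets (Dgat2 and Plin5), Etfb, Acat1, Acsl1 and Slc27a1. No droplet lipase, thioesterase, uncoupling protein or Fabp gene passed, which does not show that these did not differ. Differences were -1.67 for Acot2 (adjusted p = 0.111), -1.36 for Acot1 (0.359), -1.17 for Fabp3 (0.132) and -1.05 for Lipe (0.118). They were nearer 0 for Ucp3 (-0.72), Acot13 (-0.60), Pnpla2 (-0.34), Fabp4 (-0.30), Ucp2 (-0.16) and Mgll (0.03). The number went down to 11, 9 and 8 without EIIa-ctl 1, 2 or 3, to 10 and 11 without EIIa-tg 1 or 2, and up to 26 without Myh6-tg 1. Over all genes, 167 were lower (1.01%) and 128 higher without EIIa-ctl 3. Without Myh6-tg 1, 1081 were lower (6.62%) and 646 higher. Oxct1 and Echs1 fell in both models and gave differences of -0.56 (adjusted p = 0.599) and -0.35 (adjusted p = 0.749), which the test did not separate from 0.

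Between the control groups, which differ in age, genotype and corn oil, no member passed by edgeR, as few genes did at all, 0.0133% lower and 0.02% higher in Myh6-ctl. Unadjusted p was under 0.05 for 11 members and for 1700 of all 14990 genes. DESeq2 called 2 members, and over all genes it called 136 lower (0.838%) and 293 higher. The median log2 difference of the 45 was nonetheless -0.25, with 37 of 45 below 0, and 0.02 over all genes, and Myh6-ctl heart 3 was the lowest of the 6 control hearts for most members.

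Other genes of the pathway, from lists outside the 45, were tested in the same fits, and their counts stand against 9.38% of all genes lower and 8.96% higher in Myh6-tg, and 8.3% and 8.65% in EIIa-tg. A count of 1 in a list of 10 genes is 10%, near these shares. Among 16 further genes listed with β-oxidation, not all of them enzymes of the cycle, 8 fell and none rose in Myh6-tg (median log2 fold change -0.71). Of the same 16, 7 fell and none rose in EIIa-tg (-0.44). Ech1, a dienoyl-CoA isomerase, was 1005, 1119 and 699 CPM in Myh6-ctl and 192, 236 and 172 in Myh6-tg (-2.23, adjusted p = 0.00367). Slc25a42, the mitochondrial CoA carrier, was 42.04, 34.2 and 30.7 and 8.26, 9.80 and 8.76 (-1.99, adjusted p = 0.00205). Acad8, of valine breakdown, fell as a DEG too, from 41.8, 43.7 and 35.1 to 18.2, 20.5 and 19.4 (-1.05, adjusted p = 0.00795). Of 5 carnitine shuttle genes 3 fell in Myh6-tg and 1 in EIIa-tg, among them in Myh6-tg Crat, carnitine acetyltransferase, from 477, 446 and 352 to 165, 113 and 94.96 CPM (-1.77, adjusted p = 0.00654), and Slc22a5, the plasma membrane carnitine transporter (-1.04, adjusted p = 0.0214). The mitochondrial carnitine-acylcarnitine translocase Slc25a20 did not pass (-0.76, adjusted p = 0.0626).

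Of 10 further uptake genes 3 fell in Myh6-tg, Vldlr, Cav1 and the endothelial regulator Meox2, and in EIIa-tg 1 fell, Meox2, and 1 rose. The riser was Angptl4, an inhibitor of lipoprotein lipase, from 9.95, 12.3 and 3.48 CPM in EIIa-ctl to 78.6, 25.01 and 57.01 in EIIa-tg (2.63, adjusted p = 0.0201). In Myh6-tg Angptl4 was 1.49, 68.8 and 71.4 CPM, heart 1 below and hearts 2 and 3 above the controls. Among 15 further droplet and triglyceride genes tested 5 fell and 1 rose in Myh6-tg. Fitm1, a droplet-forming protein of muscle, went from 63.8, 90.2 and 52.6 to 7.64, 8.53 and 6.09 CPM (-3.21, adjusted p = 0.00134), a larger fall than that of any of the 45. G0s2, the inhibitor of ATGL, fell from 23.5, 46.2 and 31.6 to 7.09, 9.24 and 11.5 CPM (-1.86, adjusted p = 0.00839). In EIIa-tg, 1 of 14 fell, Gpam, and 1 rose, Plin4, from 116, 90.5 and 92.99 to 224, 123 and 169 CPM (0.78, adjusted p = 0.0373).

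Fatty acid synthesis, tested on 10 genes, had 1 higher in Myh6-tg, Scd1 (0.96, adjusted p = 0.0314), and 2 lower in EIIa-tg, Fasn (-0.42, adjusted p = 0.0468) and Elovl5 (-0.57, adjusted p = 0.0296).

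Among 17 regulators 3 fell in each model. In Myh6-tg these were Ppargc1a, encoding PGC-1α, from 66.1, 96.5 and 143 to 26.4, 17.4 and 14.6 CPM (-2.39, adjusted p = 0.00588), Esrra, encoding ERRα, from 102, 91.3 and 80.6 to 56.5, 34.7 and 31.6 (-1.16, adjusted p = 0.0196), and the PGC-1α partner Lpin1, which also makes diacylglycerol (-1.50, adjusted p = 0.00586). In EIIa-tg they were Rxrg (-0.94, adjusted p = 0.021), Esrrb (-0.61, adjusted p = 0.0431) and Esrrg (-0.68, adjusted p = 0.0227). The same 3 did not pass in Myh6-tg, where Esrrg was 16.3, 3.47 and 3.88 CPM against 35.5, 18.5 and 25.7 in Myh6-ctl (-1.75, adjusted p = 0.0803) and Rxrg was 24.6, 4.27 and 3.67 against 63.8, 52.7 and 32.6 (-2.20, adjusted p = 0.0718), heart 1 being the highest of Myh6-tg for both. Ppara itself was low, at most 17.7 CPM, and passed in neither model. Known PPAR targets outside the 45 that rose in EIIa-tg included Angptl4, as above, and Txnip, which went from 581, 310 and 324 to 1818, 989 and 1339 CPM (1.77, adjusted p = 0.0166). Neither passed in Myh6-tg (Angptl4 2.27, adjusted p = 0.171; Txnip 0.64, adjusted p = 0.285). Pdk4, of the same list, was 294, 525 and 88.3 CPM in EIIa-ctl and 1605, 492 and 817 in EIIa-tg, with overlap (1.68, adjusted p = 0.0921).

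Levels of cell type markers also differed between groups, and not always in step with the 45 genes. The summed level of the 45 genes was 25786, 23054 and 23496 CPM in EIIa-ctl and 24814, 20181 and 18205 in EIIa-tg. In the Myh6 model it was 23344, 22298 and 16077 in controls and 13284, 10456 and 8682 in transgenic hearts. The 10 cardiomyocyte markers summed to 51290, 48910 and 56670 CPM in EIIa-ctl and 24050, 42510 and 24240 in EIIa-tg, and in the Myh6 model to 47670, 52400 and 36690 in controls and 34190, 16490 and 12230 in transgenic hearts. EIIa-tg heart 1 had low cardiomyocyte markers with a summed level of the 45 genes like its controls, and Myh6-tg heart 1, the highest of its group for both sums, was under every control for both. In whole tissue, fewer cardiomyocytes and less RNA per cardiomyocyte cannot be told apart, and the part of either in these changes was not tested.

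Of those 10 markers 5 fell in Myh6-tg (Myh6, Tnni3, Mb, Myl2 and Myl3) and 5 did not pass. In EIIa-tg 2 of the markers fell (Ryr2 and Myl3), while 8 had an unadjusted p under 0.05, as had 5204 of all 14908 genes. All EIIa-tg hearts lay below all EIIa-ctl hearts for 8 of the 10 markers, and for 20.8% of all genes. Their medians were -1.34 in Myh6-tg and -0.79 in EIIa-tg, where those of the 45 genes were -1.15 and -0.16. Fibroblast markers summed to 3496 to 4284 CPM in Myh6-ctl and 3992 to 9818 in Myh6-tg, with 5 of 10 higher, and 2757 to 3499 and 4439 to 6185 in the EIIa groups, with 3 of 10 higher. Endothelial markers summed to 880 to 1658 CPM in Myh6-ctl and 818 to 924 in Myh6-tg. None of these 10 was called by edgeR in Myh6-tg, and 5 had an unadjusted p under 0.05 (5210 of all 15298 genes did). In EIIa-tg 3 of the 10 fell.

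**Figure D5:**
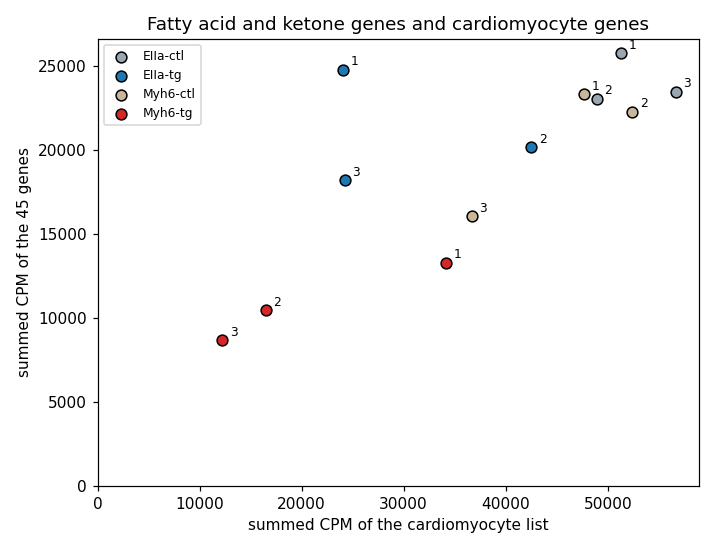
Summed CPM of the 45 genes (vertical axis) against summed CPM of the 10 cardiomyocyte markers (horizontal axis), 1 point a heart, coloured by group and marked with the replicate number. The 3 Myh6-tg hearts are lowest on the vertical axis (8682 to 13284), and EIIa-tg hearts 1 and 3 are low on the horizontal axis (24050 and 24240) with 24814 and 18205 on the vertical.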

How the data were processed

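RNA-seq of 12 hearts, 3 biological replicates in each of 4 groups by their titles, was used. The authors aligned reads with HISAT2 to GRCm38 (the labels list HISAT2 2.0.4, StringTie 2.2.1, DESeq2 and the builds GRCm39 and mm10) and deposited raw counts and FPKM per gene. The counter and its strand setting are not given in the sources used here, so overlapping and antisense genes may share reads. The count table has 22036 Ensembl genes and 3135 newly assembled loci. FPKM, scaled by the authors for length and depth, served for shares within families and for the alternative fits by limma. The overlap of groups in FPKM was given for Slc27a1 alone. The deposited files hold no columns of other samples.

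Counts were tested in R 4.3.3 with edgeR 4.0.16 (filterByExpr, TMM factors, quasi-likelihood F test, 2 groups a fit; the difference between models was an interaction over 12 hearts), with Benjamini-Hochberg adjustment over all genes tested. The test was also run on simulated counts with the same relative spread for every gene and no hearts that stand apart. That run cannot speak to calls that hang on single hearts. Total counts were 38343106 to 50969834 a library, and a floor of 3 counts covers counting error only. Exclusion of each heart, DESeq2 1.42.0, limma 3.58.1 on log2(FPKM + 1) or log2(FPKM + 0.1), other scalings and filters, removal of mitochondrial genes, a joint fit and a replicate block were alternatives. Leaving out replicate 1 of every group, because of its Y-linked counts, was added after seeing the data. Same-numbered Myh6 hearts deviated together from their group means (r = 0.27, 0.212 and 0.229 across genes). No label pairs them, and replicate 1 of both groups also differed from the others in Y-linked counts. The block thus rests on these same data. Its value stands beside the results it changes as an alternative only, and gives them no independent support.

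The 45 genes, the pathway lists and the marker lists were chosen with earlier results of these data known, and so give no independent support. All 45 genes have values here. Values per heart are given for the members of a step with the lowest p in a model, for those called in the difference between models and for those that go against most of their step, and, chosen after their values were seen, for others that passed or missed narrowly. Pathway genes were named as DEGs, as regulators, as direct partners or as checks, and, after their values were seen, where few of a list passed. Some results of the pathway lists are not reported here. Positions are those of GENCODE M21 on GRCm38, and sequence is from RefSeq GRCm38.p6. Figures were drawn with python 3.11.15 and matplotlib 3.10.9.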

Additional observations from a re-analysis of the deposited data

Results flagged for a closer look

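For 17 of the 45 genes the change in Myh6-tg differed from that in EIIa-tg by the interaction test in edgeR's quasi-likelihood fit (adjusted p under 0.05). The values below are the Myh6 log2 fold change minus the EIIa one, with the libraries taken as labelled and 3 hearts in each of 4 groups. Among droplet genes the difference was -2.33 for Plin5 and -1.72 for Dgat2. In β-oxidation it was -1.85 for Eci1, -1.65 for Decr1, -1.60 for Acaa2, -1.51 for Hadh, -1.51 for Acadvl, -1.47 for Hadhb and -1.38 for Hadha. In carnitine entry it was -1.40 for Cpt2, -1.36 for Mlycd, -1.31 for Acacb and -1.28 for Cpt1b. The remaining differences were -1.53 for Acat1, -1.38 for Etfb, -1.26 for Acsl1 and -1.22 for Slc27a1. The models also differ in age, in the cells that express Cre and in treatment, and these cannot be told apart. Groups of 3 are too small for a test of single hearts that stand apart.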

How the results depend on the processing

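In Myh6-tg, 18 of the 24 calls held in all 18 alternatives, and all 24 kept their direction and were kept with the replicate block. Of the members called in EIIa-tg, none of the 14 held in every alternative, and all 14 kept their direction.

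With 1 heart left out, the number of members lower in EIIa-tg ran from 0 to 12, higher from 0 to 8 and DEGs from 0 to 7. Over all genes these EIIa fits called 0 to 2110 lower and 0 to 1969 higher. In Myh6-tg members lower ran from 18 to 27, higher from 0 to 4 and DEGs from 1 to 27. Over all genes 411 to 2226 were lower there and 387 to 2043 higher. Members called ran from 0 to 0 in the comparison of controls and from 8 to 26 for the difference between models. In EIIa-tg, DESeq2 gave 4 DEGs and no filter on low counts gave 1. The fit of all 12 hearts left 1 lower and 0 higher. The replicate block, on numbers that do not pair the EIIa hearts (r = 0.124, -0.116 and -0.0978), gave 0 lower and 0 higher, as did leaving out replicate 1 of both groups. Over all genes the block called 0 lower and 1 higher, and leaving out replicate 1 of both groups called 0 and 0. In Myh6-tg, the members called higher were 2 by DESeq2, in the fit of all 12 hearts and with the block, 3 with total counts, by limma on log2(FPKM + 1) and without replicate 1 of both groups, and 4 by limma on log2(FPKM + 0.1) or, on log2(FPKM + 1), with a minimum FPKM of 0.5 in 3 hearts. Over all genes, 1818 were higher in Myh6-tg by DESeq2, 2475 in the fit of all 12 hearts, 1493 with the block and 3153 with total counts. By limma they were 3234 on log2(FPKM + 1), 3304 on log2(FPKM + 0.1) and 3328 with the minimum FPKM. Without replicate 1 of both groups they were 1592. Between controls, DESeq2 gave 2 members lower and no filter 1, with 136 (0.838%) and 22 (0.114%) lower over all genes. For the difference between models, DESeq2 gave 22 members and the block 20. Over all genes DESeq2 called 803 lower (4.92%) and 593 higher, and the block 376 lower (2.36%) and 274 higher.

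Computed from counts in place of FPKM, the share of Acsl1 was 92.2% in EIIa-ctl and 88.6% in Myh6-ctl, that of Acsl3 0.799% in EIIa-ctl, that of Acsl4 2.01% in EIIa-ctl and 3.18% in Myh6-ctl, that of Acsl6 0.833% in EIIa-ctl, 0.488% in EIIa-tg and 1.51% in Myh6-ctl, that of Cpt1a 9.45%, 10.3%, 8.12% and 20.4% in EIIa-ctl, EIIa-tg, Myh6-ctl and Myh6-tg, and that of Fabp4 24.1% in EIIa-tg; counts are not divided by length.

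Scaling by total counts moved the median of all genes to 0.21 in EIIa-tg and 0.43 in Myh6-tg. The sign of a log2 fold change turned 75 times over the alternatives, in 18 members, in each case where neither fit called the gene. The cause of these changes, those of the shares included, was not tested. With 3 hearts a group, small changes could be missed at any depth.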
